A study of Homo sapiens with 12 samples.

Results

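The 30 genes described here make, sense, take up, move, store or export cholesterol, and were taken by gene symbol from a table of 28901 named genes. All 30 had at least 10 counts over the 12 libraries, as did 17173 genes of the table. By role they were 7 genes of the mevalonate pathway, 11 of the steps from squalene to cholesterol, 4 that control the transcription factor SREBP-2, 5 of uptake, intracellular transport and storage, and 3 of efflux and oxysterol production. The list is not complete for the pathway, and some well-known genes of it were not among the members.

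RNA-seq was performed at day 14 of adipocyte differentiation on ASC52telo hTERT, a single immortalized line of human adipose-derived mesenchymal stem cells. There were 4 groups of 3 libraries: scramble shRNA without LPS (scramble control), scramble shRNA with LPS, linc-ADAIN shRNA without LPS (linc-ADAIN KD), and linc-ADAIN shRNA with LPS. linc-ADAIN is a long intergenic non-coding RNA of adipose tissue, and LPS, a bacterial endotoxin, was given at 100 ng/mL for 4 h. The design asked what KD of linc-ADAIN did to the adipocyte transcriptome at rest and under LPS. In all 4 groups the line was labelled wild type, the shRNA came from a lentiviral vector with the green marker ZsGreen, infected cells were sorted for ZsGreen, and the media held insulin and dexamethasone throughout, with isobutylmethylxanthine and rosiglitazone in the differentiation phase. The labels do not say whether the 3 libraries of a group came from separate cultures. Figure legends of the study describe its RNA-seq as a single experiment in triplicate. The p-values therefore measure only the spread between these libraries, which may be technical, and not the spread between independent experiments. The RNA of linc-ADAIN was not analysed here.

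Libraries held 28.4 to 53.8 M counts (units of 1e6) on named genes, and libraries of one group correlated at 0.971 to 0.986 on the log2 scale. The label of adipocytes was checked against 8 adipocyte markers, all of them detected in every group. Their summed level was 3847 to 5070 CPM (counts per 1e6 counts of the scaled library) in scramble control and 4340 to 5235 CPM with LPS, but 642 to 1843 CPM in linc-ADAIN KD and 515 to 1203 CPM in KD with LPS. In KD, 6 of the 8 were lower and 0 higher at an adjusted p under 0.05, both without and with LPS. LPS moved 0 of 8 past that threshold in either shRNA. In KD cells, however, all 8 had negative log2 fold changes with LPS, with a median of -0.73, against 0.01 in scramble cells. LPL and LEP, which did not pass in KD without LPS, were near the floor. They had 0 to 82 and 0 to 21 counts per library, so the check rests on the other 6. In bulk RNA, fewer adipocytes and less adipocyte RNA per cell cannot be told apart. ADIPOQ, PLIN1 and FABP4 were among the 6 lowered markers. The paper reports the opposite direction for these markers after KD in adipocytes of this line, with mRNA raised by qPCR and protein raised by western blot. It also reports more stored lipid in the KD cells. The cause of this difference from the RNA-seq counts was not tested. The 8 stromal markers summed to 6183 to 7355 CPM in scramble control and 7813 to 8689 CPM in KD, and to 6606 to 7327 CPM and 9746 to 10800 CPM with LPS, but they did not move together: 3 were higher and 3 lower in KD, both without and with LPS. DCN, with means of 2671 CPM without KD and 4904 CPM with it, carried much of the sum, while THY1 was 5.153-fold lower (adjusted p = 8.2e-08) and ENG 2.56-fold lower (adjusted p = 5.98e-06) in KD without LPS. The 8 macrophage markers summed to 58.2 to 61.9 CPM in scramble control and 89.4 to 119.4 CPM in KD, and to 61.0 to 72.1 CPM and 80.6 to 110.2 CPM with LPS, nearly all of it CD68 and CD163. CD163 went from a mean of 4.33 CPM in control cells to 68.6 CPM under KD, 15.9-fold higher (adjusted p = 9.77e-08), and was 17.3-fold higher with LPS, whereas CD68 was 1.72-fold and 2.371-fold lower in KD. The leukocyte gene PTPRC had 12 counts or fewer in each library. The 5 endothelial markers summed to 7.21 to 27.6 CPM over the libraries, with CDH5 at 3 counts or fewer. All 6 of the LPS response genes were higher with LPS in both shRNA groups.

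Cells obtain cholesterol by building it from acetyl-CoA through mevalonate and squalene, or by taking up lipoproteins whose cholesterol leaves the lysosome through NPC1 and NPC2. When the membrane of the endoplasmic reticulum is low in cholesterol, SCAP escorts SREBP-2 to the Golgi, where it is cleaved and released to switch on synthesis and uptake genes; when cholesterol or oxysterols are plentiful, INSIG1 and INSIG2 hold SCAP back, and liver X receptors switch on efflux genes such as ABCA1. Adipose tissue is a major store of free cholesterol, part of it on the surface of lipid droplets.

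Promoters are shown first because many of the synthesis and uptake genes are known targets of SREBP-2. RefSeq promoters on GRCh38.p14, from 250 bases before to 50 bases after the annotated start, were found for 26 of the 30 genes, with no entry for ACAT2, FDFT1, SQLE and ABCG1. Both strands were searched for a sterol regulatory element core written TCACNCCAC, the NF-Y box CCAAT, the E-box CACGTG, which reads the same on both strands, and the GC box GGGCGG. The sterol element core stood in 1 of 26 promoters (3.85%), that of SREBF2, against 1.13% of 35116 promoters, and in 0 of the 10 genes described below in every library. CCAAT stood in 18 of 26 (69.2%) against 34.6%, CACGTG in 5 (19.2%) against 7.26%, and GGGCGG in 25 (96.2%) against 45% of all promoters. A match is a string of letters and not a shown binding site, and variant forms of the sterol element were not searched. The 35116 promoters were all entries of the set, while 1 entry was used per member. They were not matched to the members for base content or level. The 250 bases before the start are printed for SREBF2, with TCACNCCAC in capitals. They are also printed for INSIG1, STARD4 and DHCR7, with CCAAT or its reverse complement in capitals. SREBF2 is the gene of SREBP-2 itself, and DHCR7 the synthesis enzyme most lowered among those called in KD without LPS. INSIG1 and STARD4 were the 2 genes called for a different LPS response between the shRNAs, calls that some fits leaving out a library lost. The 4 stretches were chosen after the values of their genes were seen. They lie at chr22:41832855-41833104 (+ strand), chr7:155297628-155297877 (+ strand), chr5:111512536-111512785 (- strand) and chr11:71448394-71448643 (- strand), and each reads 5′ to 3′ on the strand of its gene. The RefSeq starts of INSIG1, STARD4 and DHCR7 lie inside the longer spans of these genes in GENCODE given below. Part of the printed stretches of INSIG1 and STARD4, and all of that of DHCR7, therefore lies inside the gene.
SREBF2: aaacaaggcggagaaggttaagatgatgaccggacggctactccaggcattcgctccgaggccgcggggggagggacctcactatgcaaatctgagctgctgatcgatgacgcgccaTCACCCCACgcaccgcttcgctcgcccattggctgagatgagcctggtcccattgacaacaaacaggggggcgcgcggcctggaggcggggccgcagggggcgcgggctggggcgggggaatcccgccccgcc
INSIG1: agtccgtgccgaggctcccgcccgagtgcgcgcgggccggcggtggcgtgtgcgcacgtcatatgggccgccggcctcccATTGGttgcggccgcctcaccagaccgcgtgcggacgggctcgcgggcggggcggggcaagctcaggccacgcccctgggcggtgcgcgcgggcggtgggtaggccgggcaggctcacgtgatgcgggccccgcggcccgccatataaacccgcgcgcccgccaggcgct
STARD4: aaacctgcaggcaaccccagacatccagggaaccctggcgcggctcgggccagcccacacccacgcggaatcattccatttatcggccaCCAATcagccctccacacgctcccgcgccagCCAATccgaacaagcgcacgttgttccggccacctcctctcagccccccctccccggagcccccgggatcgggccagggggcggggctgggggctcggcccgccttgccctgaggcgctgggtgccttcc
DHCR7: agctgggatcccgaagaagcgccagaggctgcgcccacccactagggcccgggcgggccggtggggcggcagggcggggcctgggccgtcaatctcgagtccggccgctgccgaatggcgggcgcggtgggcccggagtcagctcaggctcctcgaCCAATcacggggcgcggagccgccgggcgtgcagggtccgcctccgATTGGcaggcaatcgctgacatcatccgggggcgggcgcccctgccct

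Compared per kilobase of the canonical transcript, the members spread widely in scramble control. The lysosomal carrier NPC2 was highest at 135.9 CPM per kb, followed by INSIG1 at 70.3, the isomerase IDI1 at 69.1 and the farnesyl diphosphate synthase FDPS at 62.8 CPM per kb. TM7SF2, a sterol reductase, and ABCG1, an exporter to HDL, were lowest at 0.575 and 0.158 CPM per kb. TM7SF2 had 15 to 127 counts per library and ABCG1 had 1 to 26, so that small differences in either were not detectable at this depth.

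**Figure D1:**
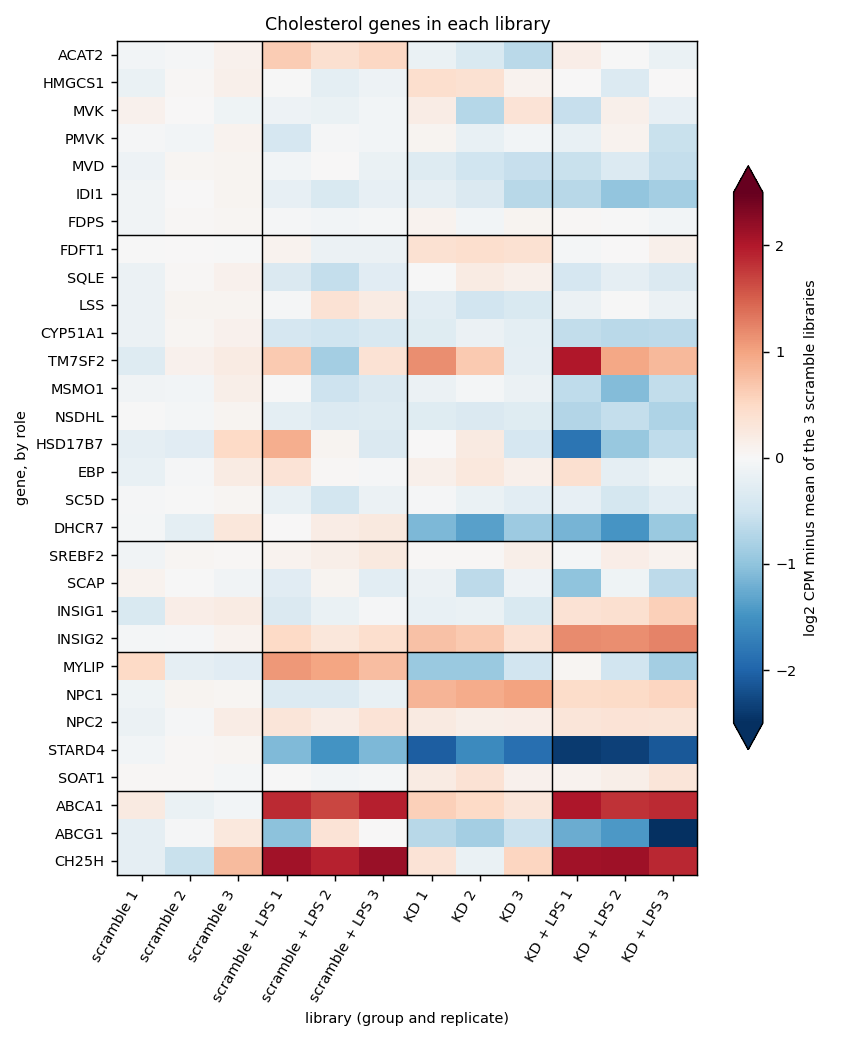
Heatmap of the 30 cholesterol genes (rows, by role) in the 12 libraries (columns, by group); colour is the log2 CPM minus the mean log2 CPM of the gene in scramble control. STARD4 is below the control level in the other 9 libraries, and ABCA1 and CH25H are above it in all 6 LPS libraries.

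Without LPS, linc-ADAIN KD lowered the sterol carrier STARD4 and several synthesis enzymes and raised NPC1, INSIG2 and ABCA1. Of the 30 genes, 13 passed an adjusted p of 0.05 in edgeR's quasi-likelihood test (43.3%), with 5 higher and 8 lower. Among all 16217 genes tested, 27.2% passed, 12.1% higher and 15.1% lower. Here and below, the genes tested include some with as few as 10 counts over the libraries of a fit. They were not matched to the 30 for level, so a difference between the shares cannot be read as a trait of the 30. The median log2 fold change of the 30 genes was -0.07, against 0.02 for all genes. With at least a 2-fold difference 2 of the 30 remained, STARD4 and DHCR7, against 7.77% of all genes. Scaling by library size alone moved the median of all genes by 0.105 and the share of higher calls from 44.5% to 61.4%, and then 7 members were higher and 4 lower. The fall in adipocyte markers and the shifts in stromal and macrophage markers moved with these results, and their part in them was not tested.

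STARD4, at chr5:111496033-111512590, carries cholesterol between membranes in the cytosol. It measured 53.3, 57.5 and 57.9 CPM in the scramble control libraries (56.2 ± 2.56, SD, n = 3), and 13.5, 18.6 and 15.1 CPM in those of KD (15.8 ± 2.59). All 3 KD libraries were far below all 3 control libraries. STARD4 fell 3.55-fold (log2 fold change -1.83, SE 0.12, adjusted p = 5.29e-07). Among the members called in the comparisons of KD with scramble cells, this was the largest difference.

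DHCR7, at chr11:71428193-71452868, is the reductase of the last step of cholesterol synthesis. It measured 13.5, 11.8 and 16.8 CPM in scramble control and 6.37, 5.44 and 7.41 CPM in KD. The groups did not overlap, and DHCR7 fell 2.188-fold (log2 fold change -1.13, SE 0.18, adjusted p = 0.000497). 5 other synthesis genes were lower by smaller amounts: ACAT2, which joins acetyl-CoA units at the start of the pathway, MVD, the decarboxylase that yields isopentenyl diphosphate, IDI1, LSS, which closes the ring of lanosterol, and NSDHL, which takes part in removing the methyl groups at carbon 4. Their log2 fold changes ran from -0.46 in MVD (SE 0.10, adjusted p = 0.00537) to -0.32 in NSDHL (adjusted p = 0.0108).

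The synthesis genes did not all move one way. FDFT1, the squalene synthase that commits the pathway to sterols, measured 82.4, 82.6 and 82.4 CPM in scramble control and 107, 110 and 108 CPM in KD, and rose by 0.40 on the log2 scale (SE 0.069, adjusted p = 0.00109). HMGCS1, the synthase that makes HMG-CoA, measured 92.6, 105 and 113 CPM against 138, 134 and 110 CPM. The HMGCS1 groups overlapped, with a log2 fold change of 0.30 (SE 0.10) at an adjusted p of 0.0494. The call was lost in 4 of the 6 fits that left out a library, with the adjusted p at 0.176 without scramble replicate 1, 0.115 without scramble replicate 2, 0.173 without KD replicate 1 and 0.142 without KD replicate 2. SQLE, the squalene epoxidase, and MSMO1, a methylsterol oxidase, did not pass the test.

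NPC1, at chr18:23506184-23586506, passes cholesterol out of the lysosome. It measured 103, 115 and 113 CPM in scramble control and 200, 209 and 220 CPM in KD. Every KD library exceeded every control library by a wide margin, and NPC1 rose 1.91-fold (log2 fold change 0.93, SE 0.078, adjusted p = 4.14e-06). Its lysosomal partner NPC2 measured 99.8 to 127 CPM and 123 to 129 CPM, and did not pass. It passed without scramble replicate 3 (log2 fold change 0.26, adjusted p = 0.0471) and with scaling by library size alone (0.28, adjusted p = 0.0378).

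Of the genes around SREBP-2, INSIG2, at chr2:118088452-118110997, rose. It measured 10.8, 11 and 11.8 CPM in scramble control and 18.6, 17.5 and 14.4 CPM in KD (1.51-fold, log2 fold change 0.59, SE 0.13, adjusted p = 0.0052), without overlap. SREBF2, the gene of SREBP-2, had means of 121 ± 6.58 CPM without KD and 127 ± 6.24 CPM with KD (SD, n = 3), with a 95% interval of the log2 difference from -0.10 to 0.24. INSIG1, at chr7:155297776-155310235, measured 155, 227 and 231 CPM against 176, 180 and 155 CPM. The log2 fold change of INSIG1 was -0.26 (SE 0.13, adjusted p = 0.181) and became -0.42 (adjusted p = 0.00629) without scramble replicate 1, the lowest control library.

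MYLIP, at chr6:16129086-16148248, encodes the ubiquitin ligase that marks lipoprotein receptors for degradation and is a target of liver X receptors. It measured 8.14, 4.96 and 4.77 CPM in scramble control and 3.02, 3.04 and 4.15 CPM in KD, a 1.75-fold fall (log2 fold change -0.80, SE 0.26, adjusted p = 0.0349). Scramble replicate 1 stood well above the other control libraries. Without it the log2 fold change was -0.51 (adjusted p = 0.195), and without KD replicate 1 or 2 the adjusted p was 0.0886 or 0.0968. ABCA1, at chr9:104781006-104928155, which loads cholesterol onto apolipoproteins for export, measured 41.0, 31.3 and 33.2 CPM against 53.1, 49.5 and 43.4 CPM. ABCA1 rose 1.39-fold (log2 fold change 0.47, SE 0.12, adjusted p = 0.00979), with 0.39 (adjusted p = 0.0543) without scramble replicate 2 and 0.42 (adjusted p = 0.0504) without scramble replicate 3. CH25H, the enzyme that makes 25-hydroxycholesterol, had a log2 fold change of 0.15 at an adjusted p of 0.767.

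Among the 13 calls without LPS, 8 held in each fit that left out a library: MVD, FDFT1, LSS, NSDHL, DHCR7, INSIG2, NPC1 and STARD4. ACAT2 lost its call without any library but KD replicate 1 (adjusted p = 0.0628, 0.0992 and 0.129 without scramble replicates 1, 2 and 3, and 0.0822 and 0.125 without KD replicates 2 and 3). IDI1 lost its call without scramble replicate 2 (adjusted p = 0.0533) or 3 (0.0526). CYP51A1, the lanosterol demethylase, gained one without scramble replicate 1 (log2 fold change -0.30, adjusted p = 0.0308), as did SOAT1, which esterifies cholesterol for storage, without KD replicate 3 (0.29, adjusted p = 0.0289). CYP51A1 also passed in the fit on 12 libraries (-0.23, adjusted p = 0.0335). SOAT1 also passed with DESeq2 (0.24, adjusted p = 0.0455) and with scaling by library size alone (0.34, adjusted p = 0.0149). In their canonical transcripts, ACAT2 and NPC1 share exon bases with genes on the opposite strand. These were 454 (29.9%) of the 1520 bases of ACAT2 with TCP1 and 98 (6.45%) with SOD2, and 198 (4.16%) of the 4760 bases of NPC1 with RMC1. Other annotated exons of MVK, CYP51A1 and NPC2 overlap MMAB, AKAP9 and ISCA2 on the opposite strand. Those of TM7SF2 overlap VPS51 on the same strand, where strand cannot part the reads. AKAP9 was 1.454-fold higher in KD without LPS (adjusted p = 0.00764). Whether the counting used strand is not given in the sources used here, so reads in the shared bases may belong to either gene. TCP1 and RMC1 did not pass the test in any comparison, while SOD2, a mitochondrial superoxide dismutase, was 2.28-fold higher in KD and 5.201-fold higher with LPS in scramble cells.

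With LPS, KD again lowered synthesis enzymes and STARD4 and raised NPC1 and INSIG2, and INSIG1 was higher as well. Of the 30 genes 13 passed (43.3%), 3 higher and 10 lower, against 26.9% of 15981 genes tested, 12.7% higher and 14.2% lower. The median log2 fold change was -0.07, against 0.03 for all genes, and 4 members differed by at least 2-fold, against 8.48% of all genes. Scaling by library size alone took the share of higher calls among all genes from 47.2% to 59.2%, and then 4 members were higher and 8 lower. The comparisons of KD without and with LPS share no library, but both used the same shRNAs in the same line. Of the 16 genes called in at least 1 of them, 10 were called in both, and all 10 in the same direction: ACAT2, MVD, IDI1, LSS, NSDHL, DHCR7, MYLIP and STARD4 lower, and INSIG2 and NPC1 higher. The same overlap was not counted over all genes, so it cannot be read as a trait of the 30. Adipocyte, stromal and macrophage markers differed between KD and scramble cells under LPS too, and their part in these results was not tested.

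**Figure D2:**
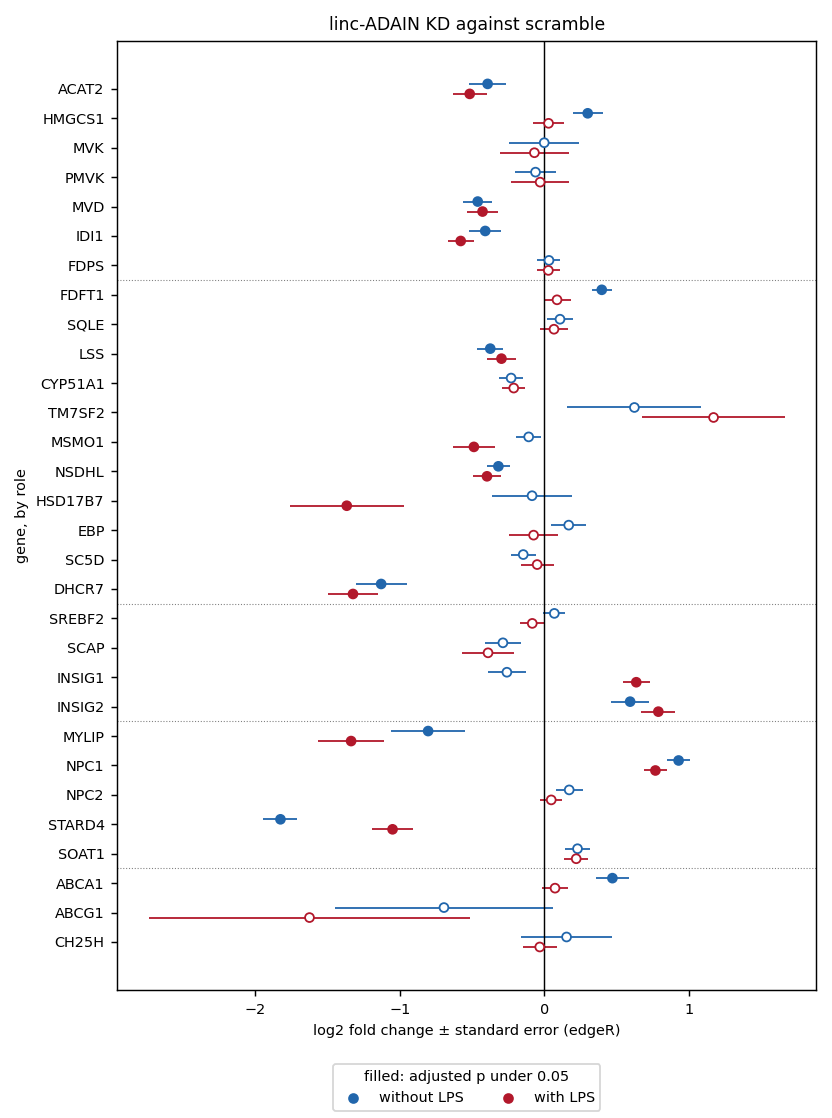
Log2 fold change of linc-ADAIN KD against scramble control (horizontal axis) for each of the 30 genes (vertical axis, by role), without and with LPS; points are edgeR estimates, bars are the standard error, and filled points passed an adjusted p of 0.05. STARD4 lies at -1.83 without LPS and -1.05 with LPS, NPC1 at 0.93 and 0.77, and INSIG1 at -0.26 and 0.64.

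DHCR7 measured 13.9, 15.7 and 16.4 CPM in scramble with LPS and 6.17, 4.97 and 7.31 CPM in KD with LPS, a 2.504-fold fall (log2 fold change -1.32, SE 0.17, adjusted p = 6.23e-05). STARD4 measured 26.0, 19.8 and 25.9 CPM against 10.7, 11.2 and 12.9 CPM, a 2.07-fold fall (log2 fold change -1.05, SE 0.14, adjusted p = 9.6e-05). MYLIP measured 12.3, 11.4 and 9.84 CPM against 5.94, 4.13 and 3.20 CPM, a 2.53-fold fall (log2 fold change -1.34, SE 0.23, adjusted p = 0.00058). In these 3 genes no KD library reached the level of a scramble library, and each call held without any one of the 6 libraries.

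HSD17B7, at chr1:162790702-162812823, is a ketosteroid reductase of the demethylation steps. It was low, at 6.98, 3.90 and 2.88 CPM in scramble with LPS and 1.05, 1.91 and 2.39 CPM in KD with LPS, the latter from 37 to 89 counts per library. Its 2.58-fold fall (log2 fold change -1.37, SE 0.39, adjusted p = 0.0195) became -0.93 (adjusted p = 0.122) without scramble with LPS replicate 1, the highest library, and -1.10 (adjusted p = 0.0675) without KD with LPS replicate 1, the lowest. The other lowered synthesis genes were IDI1 (log2 fold change -0.58, SE 0.091, adjusted p = 0.000316), ACAT2 (-0.52), MSMO1 (-0.49), MVD (-0.43), NSDHL (-0.40) and LSS (-0.30). LSS was not called without scramble with LPS replicate 2 (adjusted p = 0.154) or 3 (0.124), or without KD with LPS replicate 1 (0.121) or 3 (0.121), nor MSMO1 without scramble with LPS replicate 1 (0.103) or KD with LPS replicate 2 (0.0942). CYP51A1 gained a call without scramble with LPS replicate 2 (log2 fold change -0.24, adjusted p = 0.048).

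NPC1 measured 87.1, 87.3 and 97.4 CPM in scramble with LPS and 151, 153 and 160 CPM in KD with LPS, and rose 1.71-fold (log2 fold change 0.77, SE 0.079, adjusted p = 7.2e-06). INSIG2 measured 15.8, 13.5 and 15.0 CPM against 25.5, 24.9 and 26.5 CPM, a 1.73-fold rise (log2 fold change 0.79, SE 0.12, adjusted p = 0.000183). INSIG1 measured 157, 178 and 196 CPM against 257, 267 and 303 CPM, a 1.56-fold rise (log2 fold change 0.64, SE 0.094, adjusted p = 0.000182). In these 3 genes the KD libraries all lay above the scramble libraries. SREBF2 measured 135 ± 7.74 CPM against 128 ± 9.63 CPM (SD, n = 3), with a 95% interval of the log2 difference from -0.26 to 0.10. SCAP spread widely in KD with LPS, at 34.0, 63.5 and 43.4 CPM, and did not pass. It passed without replicate 2 of that group (log2 fold change -0.68, adjusted p = 0.00496) and with no filter on low counts (-0.39, adjusted p = 0.0316). SCAP also passed with a block on the replicate number (-0.43, adjusted p = 0.0114). ABCA1 and CH25H, with log2 fold changes of 0.07 and -0.03 between the shRNAs under LPS, did not pass.

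LPS in scramble cells raised ABCA1 and CH25H and lowered STARD4. Of the 30 genes 10 passed (33.3%), 5 higher and 5 lower, against 14.3% of 15920 genes tested, 5.90% higher and 8.38% lower. As above, the genes tested were not matched to the 30 for level. The median log2 fold change was -0.05, against 0.02 for all genes, and 3 members differed by at least 2-fold, against 2.68% of all genes. In KD cells LPS moved 12 genes past the test (40%), 4 higher and 8 lower, against 11.3% of 16169 genes, 5.32% higher and 6.03% lower. There the median was -0.13, against 0.01 for all genes, and 2 members, ABCA1 and CH25H, differed by at least 2-fold, against 2.25% of all genes. Scaling by library size alone gave 4 members higher and 6 lower in scramble cells. In KD cells it took the share of higher calls among all genes from 46.9% to 35.2% and left 4 members higher and 8 lower. The 2 LPS comparisons share no library. All 8 adipocyte markers were lower with LPS in KD cells, though none passed the test. Of the 8 stromal markers, LPS moved 5 past it in KD cells (3 higher, 2 lower) and 3 in scramble cells (2 higher, 1 lower). The part of these marker shifts in the results for the 30 genes was not tested.

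ABCA1 measured 41.0, 31.3 and 33.2 CPM in scramble control and 127, 111 and 134 CPM with LPS, and rose 3.55-fold (log2 fold change 1.83, SE 0.11, adjusted p = 1.2e-06). In KD it went from 53.1, 49.5 and 43.4 CPM to 142, 123 and 127 CPM, a 2.68-fold rise (log2 fold change 1.42, SE 0.097, adjusted p = 1.4e-07). The lowest LPS library exceeded the highest library without LPS in both shRNAs. CH25H, at chr10:89205629-89207317, rose 3.91-fold in scramble cells, from 5.18, 4.09 and 10.4 CPM to 26.1, 22.9 and 27.1 CPM (log2 fold change 1.97, SE 0.27, adjusted p = 0.000497). In KD, CH25H rose 3.42-fold, from 7.66, 5.40 and 8.81 CPM to 25.9, 26.2 and 22.3 CPM (log2 fold change 1.77, SE 0.17, adjusted p = 7.28e-06). The calls of ABCA1 and CH25H held without any one library in both shRNAs. ABCG1, the other exporter, was at 0.0351 to 0.594 CPM and did not pass in any comparison. The difference of the LPS effects between the shRNAs was -0.39 (SE 0.15, adjusted p = 0.301) for ABCA1 and -0.18 (adjusted p = 0.944) for CH25H.

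STARD4 fell with LPS in scramble cells, from 56.2 to a mean of 23.9 ± 3.56 CPM (SD, n = 3; 2.32-fold, log2 fold change -1.22, SE 0.11, adjusted p = 2.24e-05). In KD cells, where it was already low, the mean with LPS was 11.6 ± 1.17 CPM (SD, n = 3), with a log2 fold change of -0.45 (SE 0.16, adjusted p = 0.0915). The ranges of STARD4 with and without LPS did not overlap in KD cells, and it passed in the fit on 12 libraries (adjusted p = 0.0359). NPC1 fell with LPS by 0.27 on the log2 scale in scramble cells (adjusted p = 0.0432) and by 0.44 in KD cells (SE 0.073, adjusted p = 0.000939). The first of these calls was lost without scramble replicate 2 (adjusted p = 0.183) or 3 (0.109) or scramble with LPS replicate 1 (0.107) or 2 (0.0941). INSIG2 rose 1.34-fold in scramble cells (log2 fold change 0.42, SE 0.12, adjusted p = 0.0381) and 1.52-fold in KD cells (0.61, SE 0.13, adjusted p = 0.00536), the former not called without any library but scramble with LPS replicate 2 (adjusted p from 0.0562 to 0.137). MYLIP rose 1.89-fold in scramble cells (log2 fold change 0.92, SE 0.21, adjusted p = 0.0124), with 0.81 (adjusted p = 0.0671) without scramble replicate 2. In KD cells the log2 fold change of MYLIP was 0.38 (adjusted p = 0.483). NPC2 and IDI1 lay near the threshold with LPS in scramble cells and were not called. NPC2 passed without scramble replicate 3 (0.38, adjusted p = 0.0193), with DESeq2 (0.28, adjusted p = 0.0325), with no filter on low counts (adjusted p = 0.0437) and in the fit on 12 libraries (adjusted p = 0.0409). IDI1 passed with DESeq2 (-0.25, adjusted p = 0.0159), with scaling by library size alone (adjusted p = 0.0269) and with no filter (adjusted p = 0.044).

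**Figure D3:**
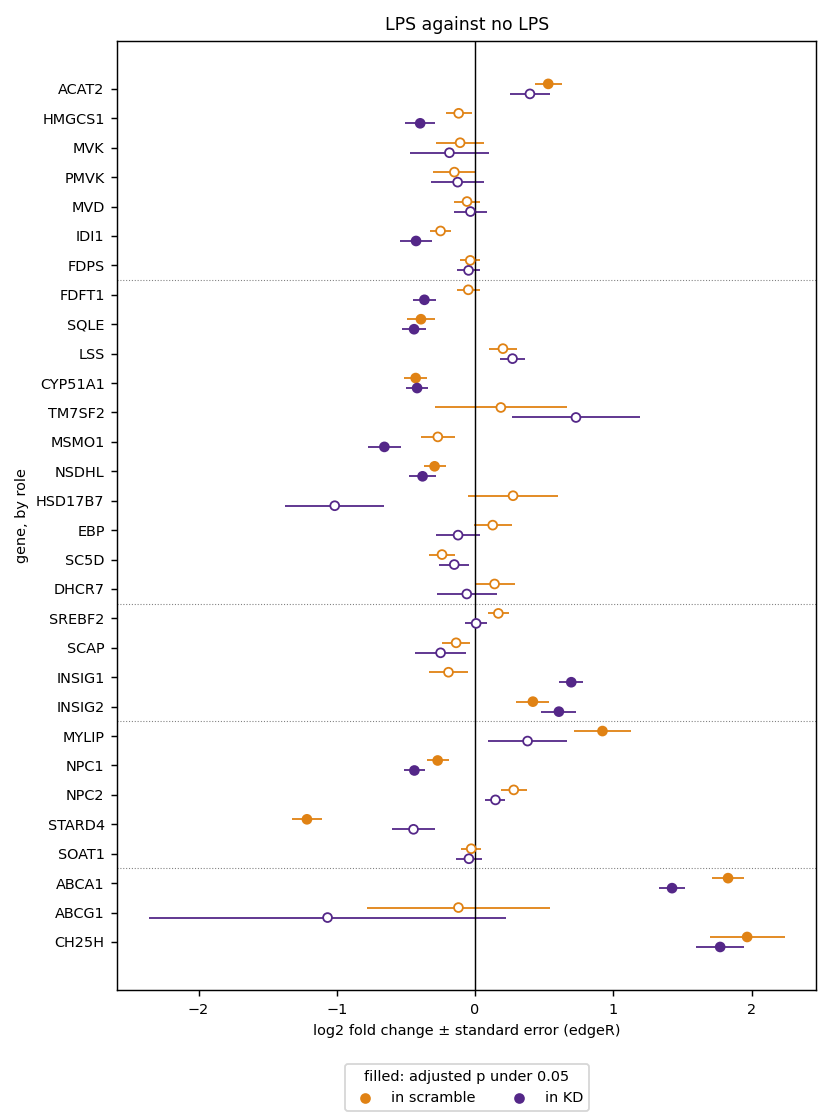
Log2 fold change of LPS against no LPS (horizontal axis) for each of the 30 genes (vertical axis, by role), in scramble and in linc-ADAIN KD cells; points are edgeR estimates, bars are the standard error, and filled points passed an adjusted p of 0.05. ABCA1 and CH25H lie furthest to the right in both, and STARD4 is at -1.22 in scramble and -0.45 in KD cells.

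Between squalene and cholesterol, LPS lowered 3 of 11 genes in scramble cells and 5 of 11 in KD cells, and raised 0 in either, against 8.38% and 6.03% of all genes lowered. SQLE fell by 0.39 on the log2 scale in scramble cells (adjusted p = 0.0211) and by 0.44 in KD cells (adjusted p = 0.00271). CYP51A1 fell by 0.43 (adjusted p = 0.00473) and 0.42 (adjusted p = 0.00271), and NSDHL fell by 0.29 (adjusted p = 0.0298) and 0.38 (adjusted p = 0.0179). MSMO1, at chr4:165327667-165343164, measured 87.4, 93.6 and 87.6 CPM in KD and 62.4, 45.2 and 63.0 CPM in KD with LPS, a 1.58-fold fall without overlap (log2 fold change -0.66, SE 0.12, adjusted p = 0.00158). In scramble cells MSMO1 had a log2 fold change of -0.27 (adjusted p = 0.177), and -0.43 (adjusted p = 0.0175) without scramble with LPS replicate 1. FDFT1 fell by 0.37 in KD cells (adjusted p = 0.00741).

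Of the 7 mevalonate pathway genes, LPS raised 1 in scramble cells and lowered 2 in KD cells, against 5.90% of all genes raised in the first and 6.03% lowered in the second, and counts this small say nothing about the 7 as a group. ACAT2 was higher by 0.53 on the log2 scale in scramble cells (SE 0.098, adjusted p = 0.00356), and by 0.40 in KD cells (adjusted p = 0.101). The mean of SOD2 rose with LPS too, from 900.4 to 4640.5 CPM in scramble cells and from 2048 to 6003.3 CPM in KD cells. Between KD and scramble cells the 2 genes went opposite ways. There the SOD2 means were higher in KD, while ACAT2 was 1.312-fold lower without LPS and 1.43-fold lower with it. Whether reads of SOD2 were counted in ACAT2 was not tested. In KD cells HMGCS1 fell by 0.40 (adjusted p = 0.0298) and IDI1 by 0.43 (adjusted p = 0.0246). HMGCS1 was not called without KD replicate 1 (adjusted p = 0.112) or 2 (0.0871) or KD with LPS replicate 2 (0.13). IDI1 was not called without KD replicate 1 (0.113) or 2 (0.0712) or KD with LPS replicate 2 (0.118) or 3 (0.0863). NSDHL lost its KD call without KD replicate 1 (0.0609) or KD with LPS replicate 1 (0.0677) or 3 (0.0805), and its scramble call without any library but scramble with LPS replicate 1 (0.0564 to 0.0996). SQLE lost its scramble call without scramble replicate 2 (0.0864) or 3 (0.0756) or scramble with LPS replicate 2 (0.0584). Without scramble replicate 2, 5 of the 30 genes passed in scramble cells in place of 10.

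The test of whether the LPS response differed between linc-ADAIN KD and scramble cells, on all 12 libraries, called 2 of the 30 genes, INSIG1 and STARD4, both in the positive direction, against 1.28% of 17173 genes (0.943% in that direction and 0.332% in the other). INSIG1 went from a mean of 204 ± 42.9 to 177 ± 19.2 CPM with LPS in scramble cells, and from 170 ± 13.6 to 276 ± 24.4 CPM in KD cells (SD, n = 3). Its LPS effect was -0.19 on the log2 scale in scramble cells (adjusted p = 0.421) and 0.70 in KD cells (SE 0.086, adjusted p = 7.24e-05), a difference of 0.90 (SE 0.18, adjusted p = 0.0153). The difference was not called without scramble replicate 2 (0.82, adjusted p = 0.0567) or KD with LPS replicate 3 (0.83, adjusted p = 0.0514). Without scramble replicate 1, INSIG1 was called lower with LPS in scramble cells (-0.35, adjusted p = 0.0436). STARD4 fell less with LPS in KD cells than in scramble cells by 0.78 (SE 0.19, adjusted p = 0.0463), a value near the threshold that held in 1 of the 12 fits that left out a library, where it ranged from 0.66 to 0.91 and the adjusted p from 0.0221 to 0.139.

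**Figure D4:**
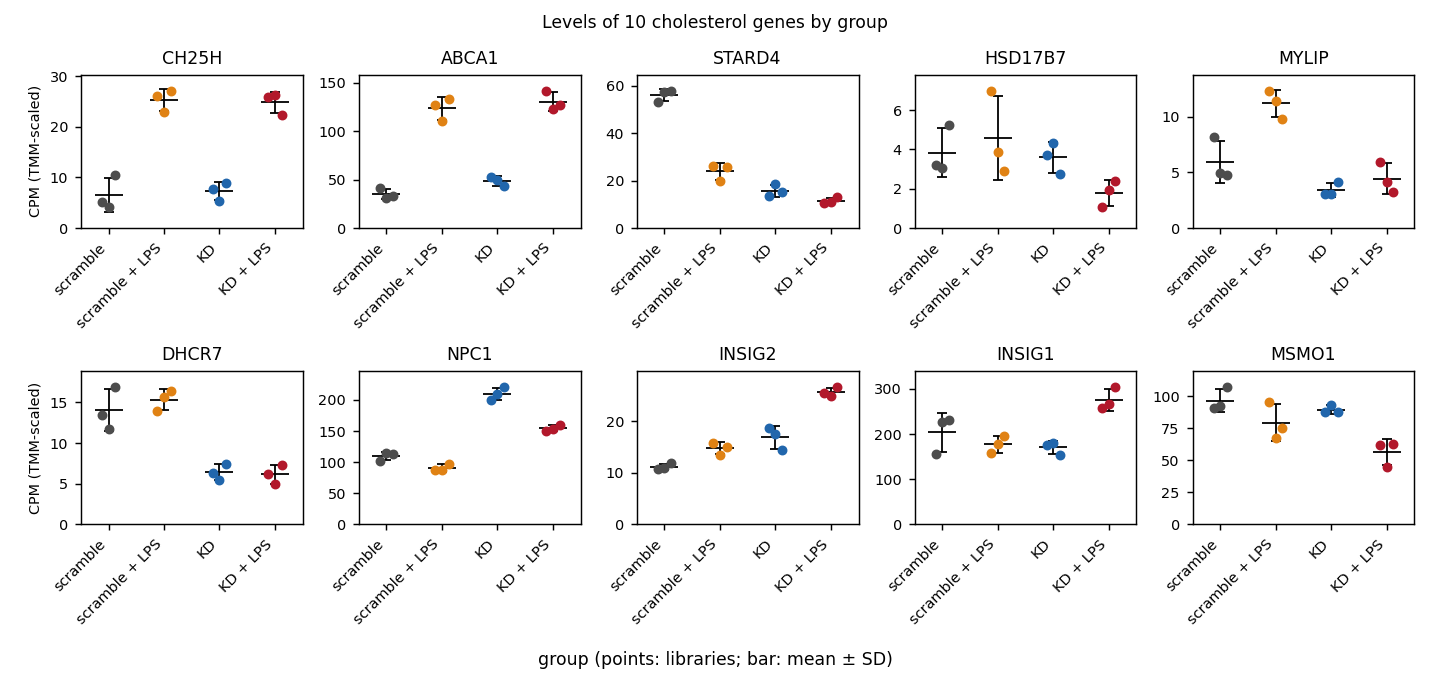
CPM, on linear axes from 0, of the 10 genes described in every library, in the 4 groups (horizontal axis); each point is a library and each bar the mean ± SD of 3. INSIG1 is highest in the 3 libraries of KD with LPS, and STARD4 is highest in the 3 scramble control libraries.

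Over the 4 comparisons, INSIG2, NPC1 and NSDHL were called in all, and 11 genes in none: MVK and PMVK, the mevalonate kinases, FDPS, TM7SF2, EBP, a sterol isomerase, SC5D, a sterol desaturase, SREBF2, SCAP, NPC2, SOAT1 and ABCG1. A missed threshold does not show that these genes were the same in the groups, and SCAP, NPC2 and SOAT1 passed in some other settings. The same counts were not made over all genes, so they cannot be read as a trait of this list. For LPS in scramble cells, INSIG2 and NSDHL lost the call in 5 of the 6 fits that left out a library, and NPC1 in 4. For LPS in KD cells, NSDHL lost it in 3.

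A second list of 29 genes of sterol sensing, transport and neighbouring lipid steps was read beside the 30. Of these, 14 passed in KD without LPS (7 higher, 7 lower) and 15 with LPS (7 higher, 8 lower), while LPS moved 4 in scramble and 4 in KD cells, 2 in each direction in both. The KD shares were 50% and 51.7%, against 27.2% and 26.9% of all genes, and the LPS share was 13.8% in both shRNAs, against 14.3% and 11.3% of all genes, close to the background. NR1H3, the gene of liver X receptor alpha, was lower in KD by 1.08 on the log2 scale without LPS (SE 0.12, adjusted p = 3.91e-05) and by 1.36 with LPS (SE 0.13, adjusted p = 2.75e-06). LBR, an inner nuclear membrane protein with sterol reductase activity, had a log2 fold change of -1.09 without LPS (adjusted p = 2.06e-06), and PLTP, the phospholipid transfer protein, -1.47 with LPS (adjusted p = 1.21e-07). VLDLR, a receptor for triglyceride-rich lipoproteins, was higher in KD without LPS, by 1.91 (SE 0.43, adjusted p = 0.00553), at a mean of 3.63 against 0.965 CPM.

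GRAMD1A, a carrier of plasma membrane cholesterol to the endoplasmic reticulum, stood at a mean of 29.8 CPM in scramble control, 33.8 CPM in scramble with LPS, 37.6 CPM in KD and 95.9 CPM in KD with LPS. It rose with LPS in KD cells by 1.35 on the log2 scale (SE 0.089, adjusted p = 1.04e-07), and the difference between its LPS effects was 1.17 (SE 0.15, adjusted p = 0.000347). GRAMD1B, a carrier of the same family, fell with LPS by 0.63 in scramble (adjusted p = 0.0407) and by 0.86 in KD cells (adjusted p = 0.0136). ERLIN2, which takes part in degradation at the endoplasmic reticulum, rose with LPS by 0.82 in scramble cells (adjusted p = 0.0122), as did GGPS1, the geranylgeranyl diphosphate synthase, by 0.37 (adjusted p = 0.0233). CYP7B1, an oxysterol hydroxylase, was called higher with LPS in KD cells on 6, 12 and 30 counts against 0 in each of the 3 KD libraries, too few for a fold.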

How the data were processed

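Polyadenylated RNA was sequenced from stranded libraries. Per the submitters' processing notes, bcl2fastq 2.19, kallisto 0.44.0 and DESeq2 1.32.0 were used, with build GRCh38. The authors deposited estimated counts per gene name, not normalized for depth or length; the annotation release and the use of strand are not given in the sources used here. The values were rounded to whole numbers. A row with no gene name, 0.235% to 0.306% of a library, was left out.

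In R 4.3.3, genes with at least 10 counts summed over a fit's libraries were kept, libraries were scaled by TMM, and genes were tested by edgeR 4.0.16 (quasi-likelihood F test, Benjamini-Hochberg adjustment over all genes kept). A gene was called at an adjusted p under 0.05. The 4 group comparisons each used their 6 libraries, and the interaction all 12. With 3 libraries against 3, an exact permutation test cannot go below 0.1 and was not used. The SE is the size of the log2 fold change over the square root of F, and 95% intervals use the t distribution with the degrees of freedom of the fit. CPM used TMM over all 12 libraries.

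Values in every library were given for the 10 members called with at least a 1.5-fold difference in a group comparison or called in the interaction; of the 29 other sterol genes, up to 3 per comparison with the largest called changes were named. Other members were named for their role or as calls. The members and lists were chosen with earlier results of these data known. Alternatives were DESeq2 1.42.0, other scalings and filters, all 12 libraries in a fit, a block on the replicate number, and the omission of each library in turn. Steps were tested on simulated data. Positions are from GENCODE release 44 on GRCh38, promoters from RefSeq. Some genes of the pathway are not reported here.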

Additional observations from a re-analysis of the deposited data

Results flagged for a closer look

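2 of the 30 genes had an LPS effect that differed between linc-ADAIN KD and scramble cells in the interaction test. INSIG1 had a difference of 0.90 on the log2 scale (adjusted p = 0.0153, edgeR's quasi-likelihood test): its level was higher with LPS in KD cells, in 3 of 3 libraries above all 3 without LPS, and the ranges with and without LPS overlapped in scramble cells. STARD4 had a difference of 0.78 (adjusted p = 0.0463) and fell with LPS in scramble cells. In KD cells, where its level without LPS was already below that of scramble cells, STARD4 did not pass the test. Its 3 KD libraries with LPS, at 10.7 to 12.9 CPM, still lay below the 3 without, at 13.5 to 18.6 CPM. The fit on all 12 libraries called this fall (-0.45, adjusted p = 0.0359). Groups of 3 libraries are too small for a test of single outlying libraries.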

How the results depend on the processing

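Over the 5 comparisons the 30 genes gave 150 results, 50 of them called by edgeR. Of these, 31 kept call and direction in every alternative and without any one library, 19 lost the call at least once, and 0 reversed. Of the 100 not called, 15 passed in at least 1 setting. The number of the 30 genes called was 10 to 14 in KD without LPS, 12 to 14 in KD with LPS, 10 to 13 for LPS in scramble and 12 to 14 for LPS in KD cells under the other tool, scalings, filters and fits, and 9 to 13, 11 to 13, 5 to 9 and 9 to 12 with a library left out. For LPS in scramble cells, 1187 to 2106 of all genes were called with a library left out, against 2274, with 1187 without scramble replicate 2 and 1461 without scramble with LPS replicate 3. In the interaction, all genes called numbered 475 with DESeq2 and 431 with no filter on low counts, against 219, and 92 to 243 with a library left out. Of the 30 genes, 1 was called there with library size only, with filterByExpr and with the replicate block, and 0 to 2 with a library left out, 0 without scramble replicate 2 or KD with LPS replicate 3; the cause was not tested. STARD4 was the one lost, at an adjusted p of 0.0626, 0.0566 and 0.0507.

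Deviations of same-numbered libraries correlated at -0.0241 to 0.0624, and in no comparison did every library correlate best with its own number. With 3 libraries per group this cannot exclude a pairing by replicate number. With the block on that number, 3260 of all genes were called for LPS in scramble, against 2274, and 2238 for LPS in KD cells, against 1835. In KD with LPS 4636 were called, against 4292, but in KD without LPS 3857, against 4411. Of the 30 genes, the block called 14 in KD with LPS, 13 for LPS in scramble, among them NPC2 (adjusted p = 0.0112) and IDI1 (0.0205), and 14 for LPS in KD cells. Library size only ended the calls of ACAT2 (adjusted p = 0.117), IDI1 (0.0537), NSDHL (0.0662) and MYLIP (0.0607) in KD without LPS, of LSS (0.15) and MSMO1 (0.0504) in KD with LPS, and of INSIG2 (0.0541) for LPS in scramble. The block ended those of ACAT2 (0.0669), MYLIP (0.0576) and HMGCS1 (0.0918) in KD without LPS and HSD17B7 (0.0564) in KD with LPS, and the fit on all 12 libraries that of HMGCS1 (0.0535). Depth limits ABCG1, TM7SF2 and HSD17B7 most.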
